A study of Sus scrofa with 37 samples.

Results

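Skeletal muscle taken 20 h after a contusion was compared with control muscle of Bama minipigs, a small pig breed kept for surgical and medical studies. The libraries were chosen by their titles: 4 made at 20 h and 9 controls, which is 13 of the 37 in the study, and all 9411 genes that passed a filter on low counts, of 9418 rows, were compared. The study bruised the muscle of 8 minipigs and took tissue at 7 times after injury, with 4 libraries at each time. The labels give the same treatment, mechanical damage, for every library, controls included. They do not say which muscle was struck, the age or sex of the pigs, or whether control tissue came from other animals or from an unstruck side of the same ones. Since 9 controls came from at most 8 animals, some controls must share an animal. With 37 libraries from 8 animals, injured libraries share animals too, within a group or across groups, and the labels do not say which. The tests treat every library as independent, and p-values measure only the spread between these libraries.

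A contusion crushes fibres and capillaries without opening the skin. Neutrophils and then monocytes enter, macrophages clear dead fibres, and fibro-adipogenic cells, the resident stromal progenitors, lay down provisional matrix in which satellite cells, the muscle stem cells, later rebuild fibres. Fibres that survive lose contractile and mitochondrial gene activity and switch on protein breakdown and repair genes. The first day is the period of leukocyte entry, before new fibres form.

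Column totals were between 10.6 and 12.3 M counts at 20 h and between 10.3 and 12.3 M in the controls. They are not sequencing depth, since every row reached at least 101 counts in some library and the table is therefore a selected part of each library. Levels are given as CPM, counts scaled to a common library total, after TMM scaling, which corrects for a few genes taking a large share of the counts. CPM are not per length, so a level compares 1 gene between libraries and not 1 gene with another. For each gene the 4 levels at 20 h stand in the order of replicates 1 to 4, a log2 fold change is followed by ± its standard error, and the adjusted p is from edgeR's quasi-likelihood test with Benjamini-Hochberg adjustment over the 9411 genes. A gene is called below an adjusted p of 0.05. A count of 3 was worth 0.194 to 0.280 CPM at 20 h and 0.236 to 0.369 CPM in the controls. The tissue label was checked on 2 fibre genes, creatine kinase CKM (28868, 12611, 9973 and 10137 CPM at 20 h, median 21914 in controls) and slow myosin MYH7 (7754, 2606, 1212 and 849 CPM, median 19232), and both were expressed in all 13 libraries. CKM was not called (-0.65 ± 0.32, adjusted p = 0.0897), and without replicate 1, which stood apart, it was (-1.14, adjusted p = 0.00500). ACTA1, MYH1, MYH2 and TTN were not analysed here.

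The libraries of the study also fell into 5 sets by column total and by the levels of C1QBP, NDUFAF8 and ND6, whichever group they belonged to. These sets were defined from the data and the labels name no batch. Replicates 2 and 3 at 20 h lay in the same set as controls 3, 4, 5 and 8, whereas replicates 1 and 4 lay in a set with no control. The changes described here were therefore also computed within the set that holds both groups. A principal component holding 56.3% of the variance over the 13 libraries placed the controls between 17.7 and 36.7 and the 20 h libraries at -34.7, -54.4, -63.0 and -82.0, so replicate 1 lay nearest to the controls and replicate 4 farthest.

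At 20 h the muscle transcriptome was widely altered. Called genes numbered 4851 of 9411 (51.5%), of which 2389 (25.4%) were higher and 2462 (26.2%) lower than in control, and the median log2 fold change over all genes was -0.04. These shares, 25.4% higher and 26.2% lower, are the background for every count in a gene list against control below. At least 2-fold rises were called for 925 genes (9.83%) and at least 2-fold falls for 1174 (12.5%). The 4 libraries and the 9 controls did not overlap for 1341 genes that were higher (14.2%) and 1106 that were lower (11.8%). With scaling by column totals alone the median of all genes moved to 0.29 and the split became 3620 higher against 1456 lower, so changes below are relative to the TMM centre. Within the set of libraries that holds both groups, 3976 genes were called, 3608 of them also called over all libraries. Without 20 h replicate 4, the library farthest from the controls, 3928 were called, and 3864 of these were among the 4851.

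**Figure D1:**
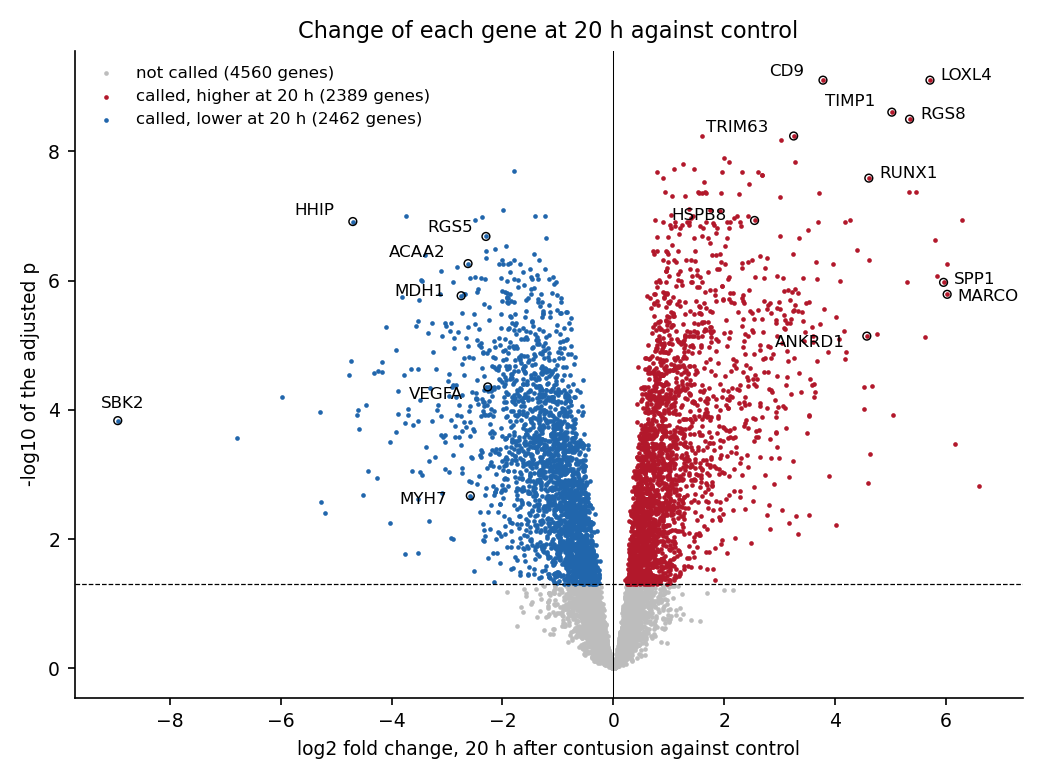
Each point is 1 of 9411 genes, with its log2 fold change at 20 h against control on the x axis and -log10 of its adjusted p on the y axis; the dashed line marks an adjusted p of 0.05. Called genes number 2389 higher and 2462 lower, and circled points are genes described in the text.

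Genes for building and remodelling matrix stood among the largest rises. LOXL4, a lysyl oxidase that crosslinks collagen (chromosome 14, 109571942 to 109593408 in Sscrofa11.1), stood at 112, 158, 160.2 and 246 CPM against 1.63 to 9.31 CPM (median 2.39) in controls. All 4 libraries lay far above every control, including control 2, the highest. The log2 fold change was 5.71 ± 0.47 (adjusted p = 7.94e-10). TIMP1, an inhibitor of matrix metalloproteases (chromosome X, 42103251 to 42106289), stood at 232, 305, 309 and 625 CPM against 7.50 to 18.9 CPM (median 11.1). Here too no library overlapped the other group, with a log2 fold change of 5.02 ± 0.45 (adjusted p = 2.48e-09). SPP1, which encodes the secreted phosphoprotein osteopontin (chromosome 8, 131077786 to 131085334), read 161, 416, 336 and 412 CPM against 2.21 to 13.5 CPM (median 4.10). Replicate 1 held the lowest of the 4 levels and was still above all controls (log2 fold change 5.96 ± 0.82, adjusted p = 1.07e-06). ST14, a membrane serine protease, went from 0 to 0.393 CPM (median 0.110) to 4.85, 9.17, 13.5 and 9.03 CPM, so that controls were at or near the level of 3 counts and no fold is given. RUNX1, a transcription factor that is low in innervated muscle (chromosome 13, 198371835 to 198635648), read 93.1, 169, 211 and 182 CPM against 3.79 to 17.1 CPM (median 5.57), with no overlap (4.61 ± 0.49, adjusted p = 2.60e-08).

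Other genes with large rises had varied roles. CD9, a tetraspanin of the cell surface (chromosome 5, 64420177 to 64459783), shared the smallest adjusted p with LOXL4. It read 377, 1052, 1369 and 1321 CPM against 37.7 to 115 CPM (median 85.4), and replicate 1 was lower than the other 3 libraries though above every control (3.78 ± 0.32, adjusted p = 7.94e-10). The gene RGS8, whose product dampens G protein signals, was at most 1.28 CPM in controls and 23.2, 30.8, 26.8 and 30.2 CPM at 20 h. ARHGAP6, a GTPase-activating protein for RhoA, went from 10.6 to 17.4 CPM (median 14.3) to 29.4, 53.3, 45.9 and 42.8 CPM, without overlap (1.60 ± 0.15, adjusted p = 5.81e-09). Levels of TARS3, a threonyl-tRNA synthetase, were 8.48, 12.3, 20.6 and 27.9 CPM at 20 h and at most 0.989 in controls. For RTKN2 replicate 1 at 4.57 CPM stood apart from replicates 2, 3 and 4 at 35.7, 49.7 and 29.6, while the highest control held 3.47. TREH, the enzyme that splits trehalose, reached 3.54, 5.52, 7.27 and 7.42 CPM while no control exceeded 0.110, which is less than 3 counts.

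The largest falls included signalling, lipid and muscle genes. HHIP, a decoy receptor that binds hedgehog ligands (chromosome 8, 83583735 to 83678368), fell from 2.19 to 9.19 CPM (median 4.40) in controls to 0.186, 0.388, 0.140 and 0.0645 CPM. The levels at 20 h were at or near 3 counts, so no fold is given, and none reached the lowest control (adjusted p = 1.22e-07). ITGB6, the beta chain of an integrin that activates latent TGF-beta (chromosome 15, 67041516 to 67175409), went from 31.2 to 131 CPM (median 66.0) to 11.2, 3.50, 1.33 and 1.16 CPM (-4.10 ± 0.63, adjusted p = 5.15e-06). Replicate 1 kept the highest of these 4 levels. Lipid genes in the group were THRSP and MLXIPL, regulators of fat synthesis, PLIN5, a coat protein of lipid droplets that touch mitochondria, and PANK1, which starts coenzyme A synthesis. PLIN5 stood at 9.04, 3.96, 1.89 and 1.29 CPM against 16.3 to 208 CPM (median 129.6). MLXIPL stood at 2.70, 1.32, 0.839 and 1.23 CPM against 5.71 to 59.1 CPM (median 28.8). Both were lower in all 4 libraries than in any control. THRSP had a log2 fold change of -4.73 ± 0.80 and PANK1 of -4.24 ± 0.74. SBK2, a kinase of striated muscle, was at 0.280, 0.311, 0.210 and 0.0645 CPM at 20 h, but its controls spanned 0.369 to 199 CPM, its standard error was 1.81 and limma-voom gave it an adjusted p of 0.249. BARX2, a homeobox gene of muscle progenitors, TRNP1, a nuclear protein, and KBTBD13, a muscle adaptor of cullin ligases, were likewise below every control.

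**Figure D2:**
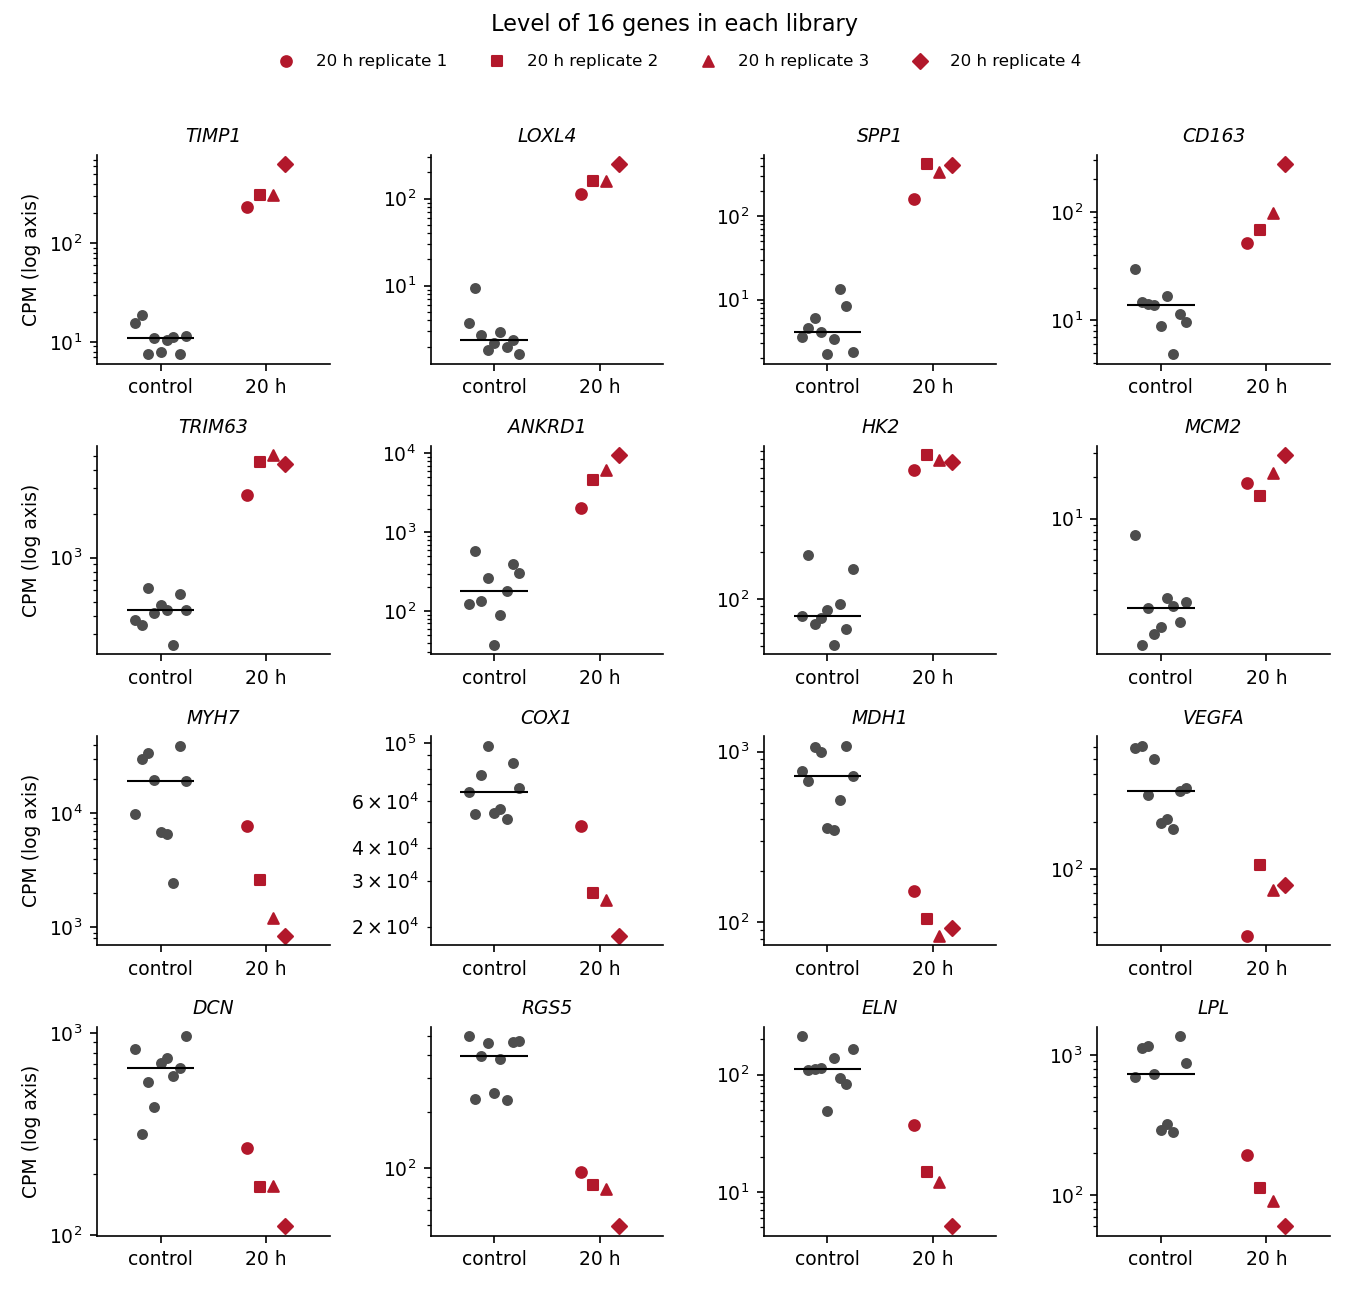
Levels in CPM on a log axis of 16 genes in the 9 controls (grey points, the line at their median) and in the 4 libraries at 20 h (red, 1 symbol per replicate). The 4 libraries at 20 h do not overlap the controls in any panel except MYH7, where replicates 1 and 2 lie within the control range.

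Genes of protein breakdown and fibre stress were among the abundant genes that rose. TRIM63, the muscle ubiquitin ligase MuRF (chromosome 6, 83493200 to 83507471), stood at 2683, 4506, 5054 and 4384 CPM against 252 to 623 CPM (median 438). Every library at 20 h was above every control by several fold (3.25 ± 0.31, adjusted p = 5.81e-09). FBXO32, the ligase atrogin that is raised with it in wasting muscle, read 1753, 1989, 2119 and 1100.0 CPM against 188 to 517 CPM (median 294) (2.45 ± 0.26, adjusted p = 3.19e-08). SQSTM1, an adaptor that carries ubiquitinated cargo to autophagy, read 1924, 2759, 3329 and 2465 CPM against 479 to 1008 CPM (median 648) (1.94 ± 0.21, adjusted p = 4.36e-08). These 3 genes shared the pattern of groups without overlap. FBXO30, a further muscle ligase, had a log2 fold change of 1.67 ± 0.18 and the lysosomal protease CTSL of 3.72 ± 0.57. UBB, which encodes ubiquitin itself, stood at 1186, 2522, 3270.0 and 3218 CPM against 489 to 1145 CPM (median 698), replicate 1 just above the highest control. In the list of 26 wasting and autophagy genes 6 rose and 5 fell, close to the background shares, with a median log2 fold change of 0.11. The summed level of these 26 genes was 9566 to 13272 CPM at 20 h and 3499 to 4966 in controls, a sum that includes TRIM63, FBXO32 and SQSTM1. Without 20 h replicate 2, and likewise without replicate 3, 7 of the 26 were called rather than 11.

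Among 27 contractile and Z-disc genes 14 fell and 3 rose (median -1.09), and the risers were genes of mechanical stress. ANKRD1, a titin-binding ankyrin repeat protein induced by stretch (chromosome 14, 102603777 to 102612857), read 2052, 4568, 6223 and 9518 CPM against 37.4 to 583 CPM (median 178). The level in replicate 4 was the highest and that in replicate 1 the lowest of the 4, all above the controls (4.57 ± 0.72, adjusted p = 7.24e-06). FLNC, a filamin that anchors the Z-disc and is renewed after strain, read 9194, 7907, 10937 and 9951 CPM against 1572 to 5218 CPM (median 3005) (1.53 ± 0.34, adjusted p = 3.79e-04). XIRP1, its binding partner at sites of damage, had a log2 fold change of 1.84 ± 0.62. HSPB8, a small heat shock protein that works on damaged filamin, stood at 3034, 4366, 5584 and 6576 CPM against 629.9 to 1323 CPM (median 763) (2.55 ± 0.30, adjusted p = 1.18e-07). On the other side MYOT, a Z-disc protein, fell from 1213 to 4827 CPM (median 2261) to 659, 502, 394 and 296 CPM. SMPX, a small costamere protein, fell from 493 to 2896 CPM (median 1195) to 261, 196, 146 and 148 CPM. Both were below every control, at log2 fold changes of -2.61 ± 0.44 and -2.93 ± 0.45. Tropomyosin TPM2 stood at 7409, 2896, 2007 and 2817 CPM against 7798 to 24790.0 CPM (median 13325), with replicate 1 close to the lowest control. The slow myosin-binding protein MYBPC1 fell to 2265, 1193, 696 and 627 CPM from 2945 to 13523 CPM (median 8455) (-2.76 ± 0.55, adjusted p = 1.24e-04).

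All 12 slow fibre genes tested fell, and 1 of 11 fast fibre genes fell. Of the slow genes 1 fell without overlap between the groups, beside 11.8% of all genes. The fast list held no fast myosin heavy chain, since MYH1, MYH2 and MYH4 were not tested, nor was the light chain MYLPF. MYH7, the slow myosin heavy chain, had a log2 fold change of -2.58 ± 0.68 (adjusted p = 0.00213), yet replicates 1 and 2 lay inside the control range of 2451 to 39021 CPM. The slow calcium pump ATP2A2 was at 1599, 1003, 522 and 352 CPM against 1715 to 10267 CPM (median 7530.0), all 4 libraries below the controls (-2.83 ± 0.51, adjusted p = 4.17e-05). MYL3, a slow light chain, read 1125, 707, 406 and 340.1 CPM against 456 to 5307 CPM (median 2579), with overlap in replicates 1 and 2. In sum the slow genes stood at 9625 to 31661 CPM at 20 h and at 15090 to 150306 CPM in controls. Fast genes summed to 43223 to 112955 CPM at 20 h and 20647 to 137283 CPM in controls. The controls alone spanned a wide range in both sums, and fibre composition of the sampled muscle and injury cannot be told apart for these genes. Fast ACTN3, a Z-disc actinin, read 7853, 3020.0, 2436 and 2144 CPM against 373 to 7091 CPM (median 1174). MYBPC2, the fast myosin-binding protein, read 11699, 5722, 4766 and 4342 CPM against 1074 to 11111 CPM (median 2577). Both were within the control range in 3 libraries and above it in replicate 1. Neither was called (adjusted p = 0.353 and 0.363). The exception among fast genes was PVALB, the calcium buffer parvalbumin, at 5.03, 1.86, 3.00 and 5.74 CPM against 2.37 to 206 CPM (median 16.1) (-3.62 ± 0.87, adjusted p = 8.78e-04), of which only replicate 2 was below all controls. Without replicate 1, 3 of the 11 fast genes were called.

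Of 17 genes for excitation and calcium handling 3 rose and 6 fell (median -0.41), beside 25.4% higher and 26.2% lower over all genes. The risers were subunits of the acetylcholine receptor. CHRND, the delta subunit, stood at 13.1, 14.9, 11.1 and 12.9 CPM against 1.26 to 6.37 CPM (median 1.95), even across the 4 libraries and above every control (2.40 ± 0.43, adjusted p = 3.07e-05). CHRNG, the gamma subunit of the fetal receptor, was low in both groups, at 2.14, 2.87, 2.59 and 2.58 CPM against 0 to 1.33 CPM (median 0.488) (2.28 ± 0.60, adjusted p = 0.00220). Among 20 satellite cell and myogenic genes 5 rose and 9 fell (median -0.43), and 9 were called without replicate 4. MYF6, the myogenic regulator of mature fibres, read 404, 638, 668 and 589 CPM against 90.2 to 311 CPM (median 242) without overlap (1.45 ± 0.23, adjusted p = 7.24e-06). HES1, a target of Notch, fell from 20.8 to 75.3 CPM (median 41.5) to 9.32, 11.7, 6.01 and 3.87 CPM (-2.48 ± 0.47, adjusted p = 6.84e-05). IGF1, a growth factor for muscle and its stem cells, stood at 3.45, 4.89, 3.08 and 2.97 CPM against 3.01 to 14.1 CPM (median 12.2), below all controls except control 2 (-1.51 ± 0.31, adjusted p = 1.98e-04). MYOG, the regulator of myoblast differentiation, was not called, at 59.8, 57.6, 67.1 and 63.3 CPM against 41.0 to 89.0 CPM (median 63.0) (adjusted p = 0.784).

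Mitochondrial and fatty acid genes fell as groups. Of 38 nuclear-encoded subunits of the respiratory chain 37 fell and none rose, with log2 fold changes from -1.99 to -1.06 and a median of -1.54. NDUFA5, a subunit of complex I, was at 108, 90.8, 83.0 and 97.2 CPM against 234 to 337 CPM (median 309) (-1.62 ± 0.22, adjusted p = 7.42e-07). UQCRFS1, the iron-sulfur subunit of complex III, was at 207, 146, 138 and 145 CPM against 438 to 763 CPM (median 613) (-1.95 ± 0.27, adjusted p = 1.48e-06). Each library at 20 h was below the lowest control for both, and for 33 of the 38 subunits. Of 12 mitochondrially encoded genes 9 fell and none rose (median -1.13). COX1, a catalytic subunit of cytochrome oxidase, read 48338, 26820.0, 25255 and 18510.0 CPM against 51587 to 97854 CPM (median 65183), replicate 1 just under the lowest control (-1.18 ± 0.31, adjusted p = 0.00216). COX2, COX3, ATP6 and ND5 had log2 fold changes of -1.36, -1.11, -1.33 and -1.33. ND6, which defines the library sets, was at 4.75, 3.50, 3.35 and 3.68 CPM against 6.66 to 163 CPM (median 111), and its log2 fold change of -4.31 ± 0.75 became -1.58 within the set that holds both groups. As 12 genes the mitochondrial genome summed to 47452 to 92513 CPM at 20 h and 119143 to 199627 CPM in controls.

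In the list for the tricarboxylic acid cycle, which feeds the respiratory chain, 20 of 22 genes were lower and none higher (median -1.17). The list also holds cytosolic enzymes outside the mitochondrial cycle, MDH1 among them. MDH1, the cytosolic malate dehydrogenase, was at 152, 104, 83.5 and 93.0 CPM against 347 to 1082 CPM (median 719), the largest fall of this list (-2.75 ± 0.39, adjusted p = 1.72e-06). DLD, a subunit shared by pyruvate and oxoglutarate dehydrogenases, was at 214, 182, 164 and 184 CPM against 444 to 654 CPM (median 571) (-1.55 ± 0.22, adjusted p = 1.89e-06). Of 30 genes of fatty acid use 25 fell and none rose (median -1.86). ACAA2, the thiolase of mitochondrial beta-oxidation, was at 43.9, 27.7, 18.9 and 21.3 CPM against 86.6 to 254 CPM (median 186) (-2.62 ± 0.34, adjusted p = 5.46e-07). ETFDH, which passes electrons from beta-oxidation to the chain, was at 112, 102, 84.6 and 69.3 CPM against 212 to 619.8 CPM (median 441) (-2.29 ± 0.29, adjusted p = 4.41e-07). For both, replicate 1 held the highest level at 20 h and no library reached the controls. ACSM3, a medium-chain acyl-CoA synthetase, fell furthest in this list, at -3.92 ± 0.64. It was at 0.280, 0.777, 0.629 and 0.580 CPM against 1.21 to 27.5 CPM in controls. The levels at 20 h were low, replicate 1 at 3 counts, so the fold depends on the small count added to each value.

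In glycolysis 5 of 22 genes rose, none fell, and the median log2 fold change was 0.02, beside a background of 25.4% higher. Without replicate 1, 4 rose and 3 fell (median -0.40), and within the set that holds both groups 4 rose and 2 fell (median -0.12). HK2, the inducible hexokinase that traps glucose in muscle (chromosome 3, 68155656 to 68231187), stood at 682, 849, 786 and 768 CPM against 50.5 to 193 CPM (median 77.5). Its 4 levels were close to each other and above every control (3.01 ± 0.37, adjusted p = 2.03e-07). HK1, the hexokinase of most other cells, read 101, 129, 116 and 184 CPM against 19.9 to 36.9 CPM (median 31.3) (2.17 ± 0.31, adjusted p = 2.23e-06). PFKFB3, which makes the activator of phosphofructokinase, was at 496, 519, 382 and 248 CPM against 7.61 to 65.3 CPM (median 44.3) (3.47 ± 0.50, adjusted p = 2.24e-06). In sum the list stood at 222003 CPM in replicate 1, 82226 to 92645 CPM in replicates 2 to 4 and 41593 to 232991 CPM in controls, so the groups overlapped.

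**Figure D3:**
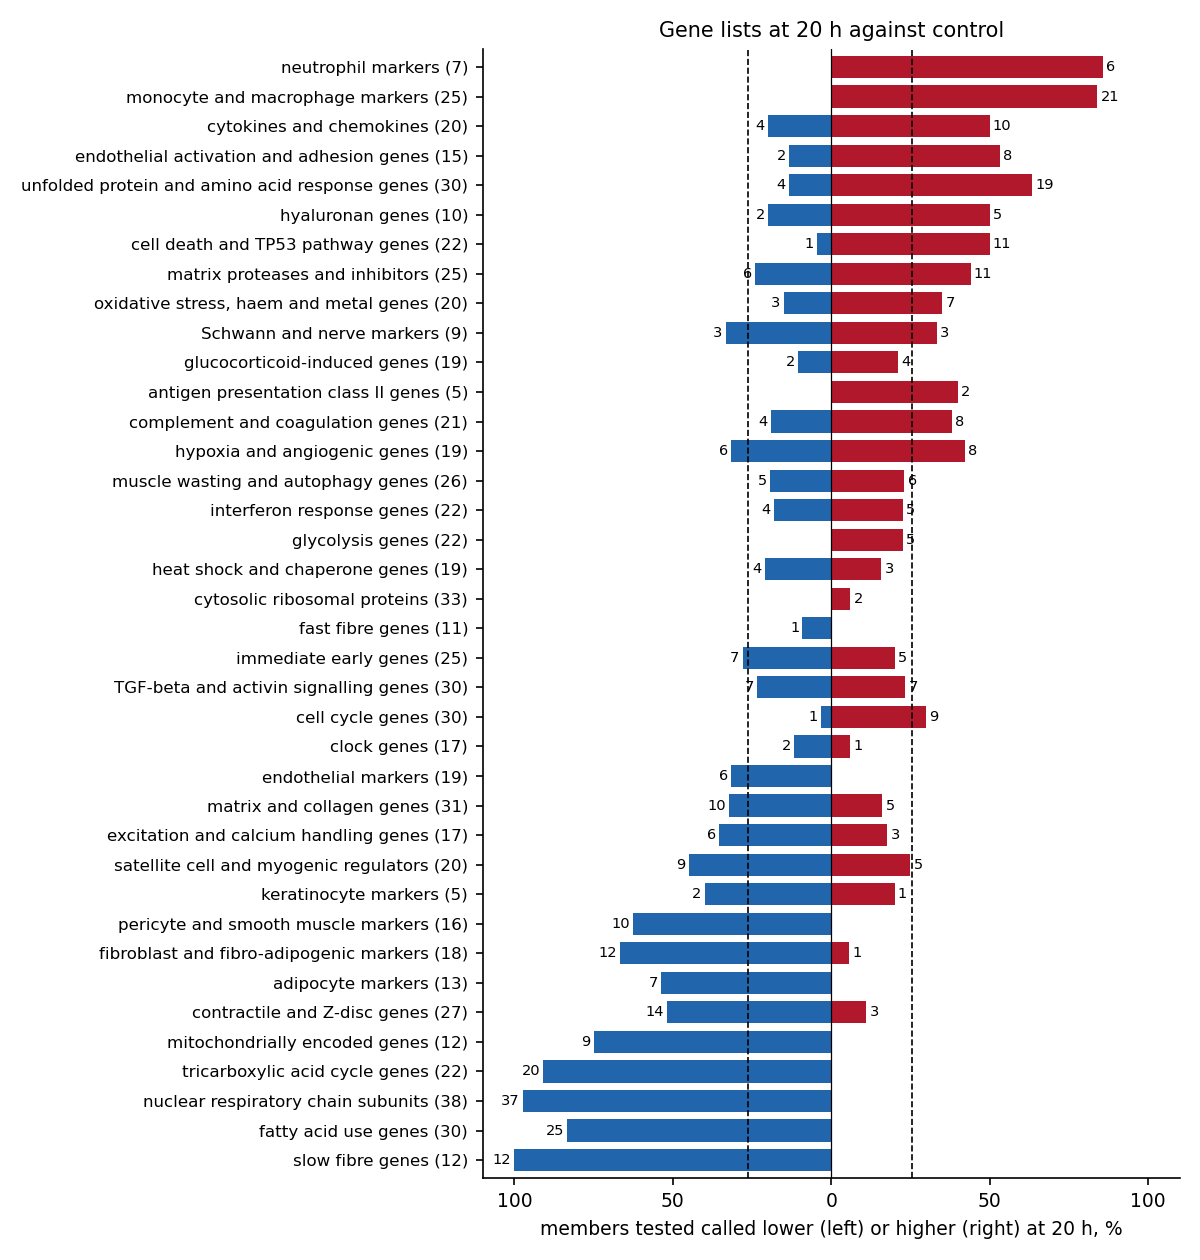
Bars give the share of tested members of each list (number tested in brackets, lists of at least 5) that were called higher (red) or lower (blue) at 20 h, with the counts beside the bars, ordered by median log2 fold change; dashed lines mark the shares over all genes, 25.4% higher and 26.2% lower. Neutrophil and macrophage markers lie at the top, and slow fibre, fatty acid and respiratory chain genes at the bottom.

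Leukocyte genes rose. Of 25 monocyte and macrophage markers tested 21 rose and none fell, with a median log2 fold change of 2.08. In bulk tissue more cells of a type and more RNA per cell cannot be told apart. CD163, the haemoglobin scavenger receptor (chromosome 5, 63300200 to 63334497), stood at 51.8, 68.5, 97.8 and 274 CPM against 4.83 to 29.5 CPM (median 13.8). Replicate 4 held the highest level, and all 4 were above the controls (3.16 ± 0.44, adjusted p = 1.42e-06). MSR1, a scavenger receptor for modified lipoproteins, read 10.3, 16.5, 18.4 and 44.1 CPM against 0.435 to 2.34 CPM (median 1.47) (3.96 ± 0.52, adjusted p = 5.61e-07). TYROBP, the signalling adaptor of myeloid receptors, read 17.1, 22.3, 21.4 and 53.0 CPM against 0.989 to 6.21 CPM (median 2.21) (3.42 ± 0.46, adjusted p = 9.13e-07). In both, replicate 4 lay well above the other 3 libraries and none overlapped the controls. TREM2, a lipid-sensing partner of TYROBP, reached 2.61, 4.12, 5.52 and 10.00 CPM, where controls held at most 0.549. MARCO, a scavenger receptor for bacteria, reached 2.89, 6.84, 7.55 and 25.5 CPM, where controls held at most 0.769. GPNMB, a glycoprotein of phagocytic macrophages, had a log2 fold change of 1.94 ± 0.44. LYZ, the lysozyme of myeloid cells, was at 5.50, 9.94, 9.29 and 20.8 CPM against 0.110 to 1.33 CPM (median 0.471) (4.40 ± 0.55, adjusted p = 3.40e-07). The 25 markers summed to 577.5, 769, 882 and 1655 CPM at 20 h and to 187 to 412 CPM in controls. No marker was at 0 in all 4 libraries.

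Other myeloid genes that stood among the largest rises were SLC11A1, AQP9, SERPINB10 and CCR1. SLC11A1, a metal transporter of phagosomes, was at 16.6, 21.8, 28.2 and 52.2 CPM, against at most 1.19 in controls (5.80 ± 0.72, adjusted p = 2.40e-07). AQP9, a water and glycerol channel of leukocytes, was at 4.01, 7.77, 8.11 and 16.8 CPM. SERPINB10, a serpin of myeloid cells, was at 2.98, 6.53, 8.81 and 21.1 CPM. CCR1, a receptor for inflammatory chemokines, read 16.7, 29.8, 31.5 and 70.8 CPM against 0.246 to 6.21 CPM (median 0.781). Control 2 held the highest control level of CCR1, of SERPINB10 and of LOXL4, and each was below all libraries at 20 h.

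Of 22 neutrophil markers listed 7 were tested and 6 rose, with a median log2 fold change of 3.25. IL1R2, the decoy receptor for interleukin 1, was at 2.52, 9.48, 5.31 and 17.4 CPM against 0 to 1.09 CPM (median 0.293) (adjusted p = 4.49e-05), most controls being near 3 counts, so that no fold is given. S100A12, a calcium-binding alarmin, was at 5.50, 5.83, 4.61 and 26.2 CPM against 0 to 2.28 CPM (median 1.05) (3.52 ± 0.70, adjusted p = 1.19e-04). Replicate 4 lay far above the other 3 libraries for S100A12 and S100A8. The call for S100A8 (3.25 ± 0.75, adjusted p = 6.23e-04) was lost without replicate 4 (adjusted p = 0.0515). CSF3R, the receptor for granulocyte colony-stimulating factor, was at 4.75, 15.7, 9.22 and 22.1 CPM against 0 to 5.75 CPM (median 1.84), replicate 1 lying inside the control range (2.80 ± 0.77, adjusted p = 0.00293). The 7 markers summed to 17.4, 44.7, 28.7 and 95.5 CPM at 20 h and 1.37 to 12.9 CPM in controls. Of 4 lymphocyte markers 2 rose. NKG7, a granule protein of killer cells, was at 9.88, 11.8, 12.1 and 19.0 CPM against 1.36 to 2.91 CPM (median 1.60) (2.79 ± 0.41, adjusted p = 2.35e-06). CCL5, a chemokine of T and killer cells, was at 4.57, 7.92, 5.52 and 7.48 CPM against 0.984 to 4.44 CPM (median 2.37) (1.25 ± 0.37, adjusted p = 0.00579), replicate 1 lying close to the highest control. The 4 summed to 27.5 to 45.0 CPM at 20 h and 15.7 to 28.4 CPM in controls. Neither mast cell marker tested was called, and of 3 erythrocyte and platelet markers 1 fell.

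Among 20 cytokines and chemokines 10 rose and 4 fell (median 0.96), and 9 were called without replicate 4. CCL2, the chemokine that draws monocytes (chromosome 12, 40798109 to 40800013), was at 43.8, 101, 85.9 and 239 CPM against 0.435 to 24.5 CPM (median 6.77). All libraries at 20 h exceeded the controls, replicate 4 by the most (3.62 ± 0.65, adjusted p = 3.95e-05). CSF1, the growth factor of macrophages, was at 51.3, 76.7, 67.3 and 123 CPM against 9.84 to 30.8 CPM (median 18.8) (2.04 ± 0.39, adjusted p = 8.35e-05). TGFB1, a repair cytokine that acts on stromal cells, was at 30.2, 42.4, 51.0 and 46.8 CPM against 9.10 to 27.1 CPM (median 17.3) (1.22 ± 0.28, adjusted p = 5.34e-04). These 3 were raised without overlap. The neutrophil chemokine AMCF-II was at 0.559, 1.32, 0.559 and 9.09 CPM, with replicate 4 standing apart. It lies in a family of similar chemokine genes, so its reads may have been split, and it lost its call without that library (adjusted p = 0.0533) and without the set of replicates 1 and 4 (adjusted p = 0.0674). CXCL9, an interferon-gamma target that draws T cells, fell to 1.86, 1.79, 1.12 and 0.903 CPM from 2.06 to 19.7 CPM (median 5.75) (-2.39 ± 0.53, adjusted p = 4.21e-04). CSF3 also fell (-3.32 ± 0.98, adjusted p = 0.00528), though limma-voom did not call it (adjusted p = 0.0798).

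Of 15 endothelial activation and adhesion genes 8 rose and 2 fell. ITGB2, the common beta chain of leukocyte integrins, was at 39.9, 43.7, 45.3 and 76.4 CPM against 4.43 to 11.3 CPM (median 6.46) (2.93 ± 0.44, adjusted p = 4.11e-06). VCAM1, an endothelial ligand for leukocytes that satellite cells also carry, was at 80.8, 73.8, 90.8 and 106 CPM against 27.4 to 56.4 CPM (median 42.8) (1.04 ± 0.23, adjusted p = 4.71e-04). The groups did not overlap for either gene. Immediate early genes are largely the transcription factors of the first minutes to hours. Of 25 tested, 5 were higher and 7 lower (median -0.12), near the shares over all genes (25.4% and 26.2%). Within the set that holds both groups 8 were higher and 3 lower (median 0.47), so the balance depends on the libraries used. FOSL1, a late member of the FOS family, was at 7.27, 14.2, 12.2 and 16.0 CPM against 0.492 to 2.37 CPM (median 1.07) (3.44 ± 0.55, adjusted p = 8.47e-06), and MYC had a log2 fold change of 1.65 ± 0.43. SOCS3, the feedback inhibitor of interleukin 6 signalling, was at 65.8, 118, 97.8 and 121 CPM against 5.13 to 38.3 CPM (median 8.96), with control 2 the highest control (3.06 ± 0.59, adjusted p = 8.57e-05). The quiescence factors KLF2 and KLF4 and the nuclear receptor NR4A2 were lower, with log2 fold changes of -2.00, -1.38 and -1.37, and ATF3 was lower at -2.27. KLF4 was not called within the set that holds both groups (adjusted p = 0.0503). Of 22 interferon genes 5 were higher and 4 lower, no more than the shares over all genes (25.4% and 26.2%). TAP1, a peptide transporter for antigen presentation, had a log2 fold change of 1.46 ± 0.18. The antiviral IFI44L was lower, with a log2 fold change of -0.70 ± 0.20, a call lost with scaling by column totals (adjusted p = 0.142). Of 5 genes of class II antigen presentation 2 rose, and neither call was kept without replicate 4, while 1 was called without control 3, control 5, control 7 or control 8.

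Complement and coagulation genes numbered 8 higher and 4 lower of 21 (median 0.21, and -0.40 without replicate 1). PLAU, the urokinase plasminogen activator, was at 87.3, 146, 134 and 238 CPM against 14.8 to 35.0 CPM (median 19.4). Its receptor PLAUR was at 9.51, 19.9, 18.4 and 35.0 CPM against 1.60 to 4.79 CPM (median 3.71). Both were above every control, at 2.78 ± 0.45 and 2.51 ± 0.45. F13A1, the clot-stabilising transglutaminase that tissue macrophages also make, was at 29.6, 32.9, 30.7 and 101 CPM against 2.30 to 11.1 CPM (median 3.94), replicate 4 standing apart (3.14 ± 0.56, adjusted p = 3.14e-05). CFP, the complement activator properdin, was at 13.1, 9.40, 14.7 and 29.4 CPM against 0.942 to 3.93 CPM (median 1.56) (3.09 ± 0.48, adjusted p = 5.56e-06).

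Matrix genes changed in both directions. Of 31 matrix and collagen genes 5 rose and 10 fell (median -0.36), beside shares over all genes of 25.4% higher and 26.2% lower. The risers were TNC, LOXL4, VCAN, LOX and COL6A3. Those that fell included LOXL1, COL6A1, POSTN and SPARC, so genes of the same kinds went both ways. TNC, the provisional matrix glycoprotein tenascin-C (chromosome 1, 255533235 to 255630381), was at 168, 257, 264 and 376 CPM against 7.36 to 37.4 CPM (median 13.4). The lowest library at 20 h was above the highest control, control 3 (4.08 ± 0.56, adjusted p = 1.02e-06). LOX, a collagen crosslinker, was at 49.0, 112, 150.5 and 165 CPM against 15.1 to 48.6 CPM (median 25.8), replicate 1 just above the highest control (2.07 ± 0.38, adjusted p = 5.05e-05). ELN, which encodes elastin, fell to 36.8, 14.8, 12.2 and 5.09 CPM from 49.2 to 212 CPM (median 111) (-2.80 ± 0.44, adjusted p = 6.27e-06). COL15A1, a basement membrane collagen, fell to 188, 80.9, 65.4 and 72.8 CPM from 153 to 709 CPM (median 338) (-1.95 ± 0.35, adjusted p = 4.00e-05). For both, replicate 1 held the highest level of the 4, and for COL15A1 it lay within the control range. Proteases and inhibitors counted 11 higher and 6 lower of 25 (median 0.60). MMP15, a membrane metalloprotease, and RECK, a membrane inhibitor of metalloproteases, were lower, at -1.77 ± 0.30 and -1.48 ± 0.25.

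Hyaluronan, the sugar polymer of early wound matrix, had 5 of 10 genes higher and 2 lower. CD44, its main receptor, was at 29.9, 65.5, 67.9 and 91.9 CPM against 6.64 to 19.7 CPM (median 13.2) (2.27 ± 0.44, adjusted p = 7.84e-05). VCAN, the proteoglycan that binds it, was at 49.3, 78.2, 78.9 and 218 CPM against 19.4 to 48.0 CPM (median 33.1) (1.72 ± 0.42, adjusted p = 0.00102). Replicate 4 was the highest for both and replicate 1 the lowest, and no library overlapped the controls. CEMIP, which breaks hyaluronan down, was at 0.839, 4.74, 5.80 and 4.32 CPM against at most 0.365 in controls. The synthase HAS1 was low throughout, at 1.40, 1.40, 1.96 and 1.03 CPM against 0 to 0.274 CPM (median 0.0786). In TGF-beta and activin signalling 7 of 30 genes rose and 7 fell, near the shares over all genes (25.4% and 26.2%). FSTL3, a follistatin-like binder of activin, was at 23.9, 35.7, 52.3 and 49.0 CPM against 9.67 to 17.8 CPM (median 14.2) (1.53 ± 0.24, adjusted p = 7.41e-06). FST, follistatin itself, was at 5.59, 2.02, 2.03 and 1.48 CPM against 4.61 to 23.6 CPM (median 10.4) (-2.21 ± 0.51, adjusted p = 6.30e-04), replicate 1 lying inside the control range. The receptor TGFBR2 rose by a small amount (0.71 ± 0.14) and the secreted FSTL1 fell (-1.28 ± 0.27).

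Markers of pericytes and smooth muscle, of stromal cells and of fat cells were mostly lower. Endothelial markers were lower at about the share over all genes, and none was higher. Of 16 pericyte and smooth muscle markers 10 fell and none rose (median -0.79). RGS5, the pericyte marker (chromosome 4, 87286953 to 87340816), was at 96.1, 82.0, 77.8 and 49.5 CPM against 229 to 499 CPM (median 392), far below every control (-2.30 ± 0.28, adjusted p = 2.08e-07). ACTA2, smooth muscle actin, was at 90.1, 79.2, 56.3 and 43.0 CPM against 129 to 323 CPM (median 277) (-1.89 ± 0.27, adjusted p = 2.23e-06), and CNN1, calponin, had a log2 fold change of -1.99 ± 0.26. Of 19 endothelial markers 6 fell (median -0.33), a share near the background of 26.2% lower. None rose, beside a background of 25.4% higher. They summed to 1218 to 1796 CPM at 20 h, inside the control range of 944 to 2332 CPM. EMCN, a capillary and venous sialomucin, was at 16.4, 22.2, 21.9 and 20.6 CPM against 36.3 to 69.3 CPM (median 47.3) (-1.28 ± 0.22, adjusted p = 2.39e-05). TEK, the angiopoietin receptor, was at 40.4, 36.0, 39.1 and 27.1 CPM against 43.9 to 114 CPM (median 94.0) (-1.31 ± 0.27, adjusted p = 1.76e-04). The ligand ANGPT1 was at 2.14, 1.24, 0.908 and 1.35 CPM against 3.92 to 19.1 CPM (median 10.7). VEGFA, the growth factor of capillaries, was at 37.9, 107, 73.7 and 78.9 CPM against 181 to 607 CPM (median 315). Both were below all controls, with log2 fold changes of -3.03 ± 0.46 and -2.27 ± 0.41 (adjusted p = 4.55e-06 and 4.42e-05).

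Of 18 fibroblast and fibro-adipogenic markers 12 fell and 1 rose (median -0.99). DCN, the small proteoglycan decorin, was at 270.2, 172, 175 and 111 CPM against 318 to 963 CPM (median 674) (-1.84 ± 0.32, adjusted p = 2.78e-05). LUM, the proteoglycan lumican, was at 44.4, 36.4, 35.9 and 29.7 CPM against 60.7 to 251 CPM (median 187) (-2.24 ± 0.34, adjusted p = 4.11e-06). The groups did not overlap for these 2 genes or for MFAP5 (-2.74 ± 0.51), a microfibril protein. The riser was PDPN, podoplanin of activated fibroblasts, at 75.3, 125, 240.3 and 289.9 CPM against 7.48 to 46.6 CPM (median 11.9) (3.53 ± 0.51, adjusted p = 2.11e-06). In sum the 18 markers stood at 6891 CPM in replicate 1, inside the control range of 3687 to 11188 CPM, and at 2363 to 2938 CPM in replicates 2 to 4. Adipocyte markers numbered 7 lower and none higher of 13 (median -1.06), and 4 were called without replicate 3 and 4 without replicate 4. LPL, the lipase that releases fatty acids from plasma lipoproteins, was at 194, 113, 91.5 and 60.1 CPM against 283 to 1356 CPM (median 737) (-2.73 ± 0.47, adjusted p = 1.96e-05), without overlap. ADIPOQ, the fat cell hormone adiponectin, was at 17.8, 4.04, 3.91 and 6.45 CPM against 16.8 to 141 CPM (median 69.8) (-2.97 ± 0.56, adjusted p = 6.03e-05), replicate 1 inside the control range.

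**Figure D4:**
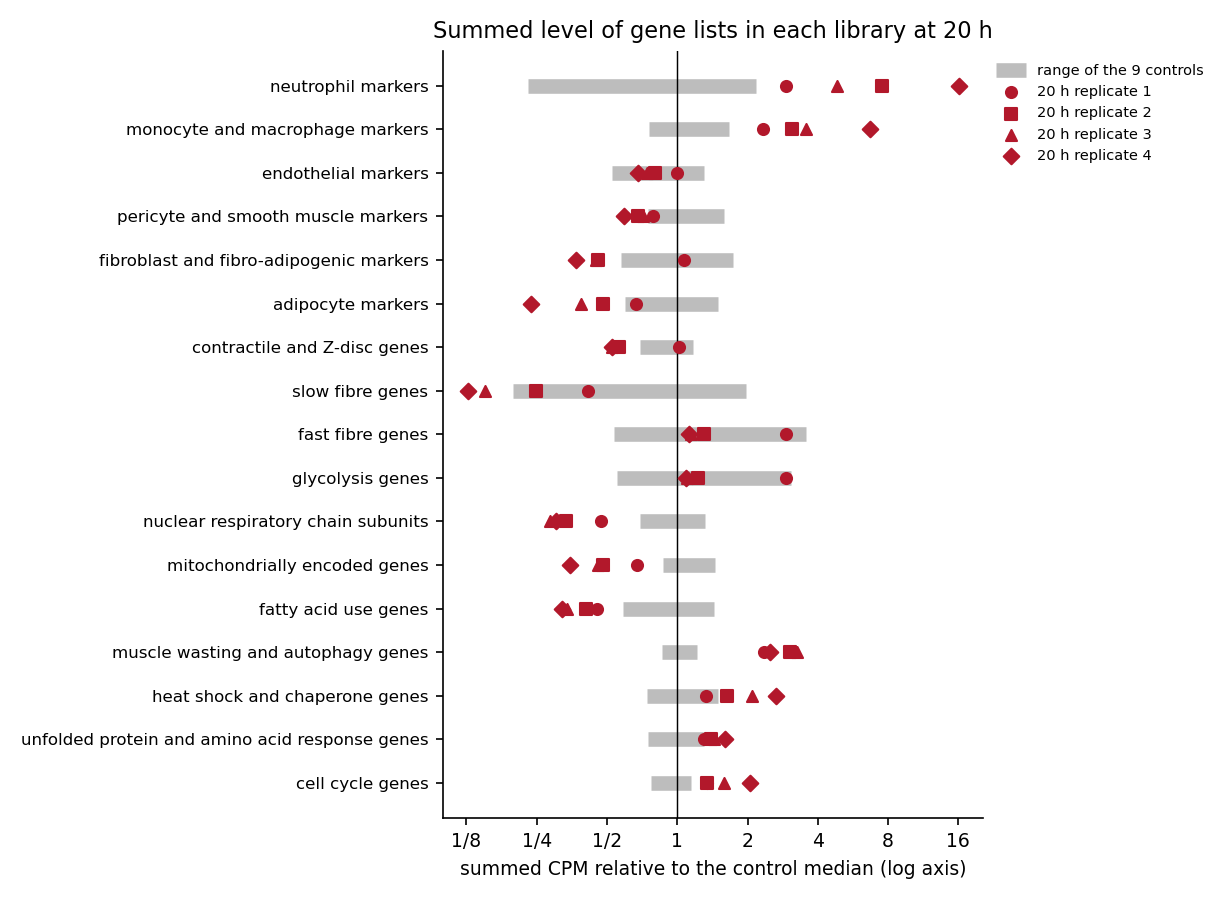
Summed CPM of each list in the 4 libraries at 20 h (red symbols) relative to the control median on a log axis, with the range of the 9 controls as a grey bar. All 4 libraries lie outside the control range for both leukocyte lists, the respiratory chain lists, fatty acid use, wasting, unfolded protein and cell cycle genes. Only replicate 1 lies inside it for fibroblast, adipocyte and contractile genes, replicates 1 and 2 do for slow fibre genes, and all 4 do for fast fibre genes.

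Stress genes of the endoplasmic reticulum rose. Of 30 unfolded protein and amino acid response genes 19 were higher and 4 lower (median 0.86). CALR, a calcium-binding chaperone of the reticulum, was at 263, 376, 431 and 527 CPM against 96.5 to 170.3 CPM (median 150.4) (1.50 ± 0.21, adjusted p = 1.25e-06). HYOU1, a chaperone of secreted proteins, was at 82.5, 103, 89.3 and 169 CPM against 20.1 to 46.4 CPM (median 31.2) (1.75 ± 0.27, adjusted p = 5.94e-06). PDIA4, a disulfide isomerase, was at 139, 178, 173 and 252 CPM against 59.5 to 104 CPM (median 81.0) (1.21 ± 0.18, adjusted p = 2.46e-06). Replicate 1 was the lowest and replicate 4 the highest of the 4 for these 3 genes, without overlap. MANF, a secreted survival factor of the reticulum, had a log2 fold change of 1.67 ± 0.25, and HSPA5, the master chaperone, of 1.59 ± 0.32. PHGDH and PSPH, enzymes of serine synthesis, were 2 of the 4 that fell. PHGDH was at 0.932, 0.544, 0.489 and 0.451 CPM against 1.09 to 3.19 CPM (median 2.50) (-1.93 ± 0.45, adjusted p = 6.75e-04). PSPH was at 1.21, 0.699, 0.559 and 0.258 CPM against 0.639 to 4.92 CPM (median 3.15) (-2.24 ± 0.43, adjusted p = 7.42e-05), replicates 1 and 2 within the control range.

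Cytosolic heat shock genes had no common direction, 3 of 19 higher and 4 lower, no more than the shares over all genes (25.4% and 26.2%). Without replicate 4, 4 were called. DNAJB1, the partner of HSP70, was at 39.0, 32.7, 33.7 and 52.6 CPM against 48.0 to 269.9 CPM (median 150.1), replicate 4 lying inside the control range (-2.01 ± 0.47, adjusted p = 6.26e-04). DNAJB4 was lower as well, at -2.16 ± 0.39. HSPA8, the constitutive HSP70, was called higher (0.72 ± 0.22, adjusted p = 0.00760) but not without replicate 4 (adjusted p = 0.157), within the set that holds both groups (adjusted p = 0.247), without the set of replicates 1 and 4 (adjusted p = 0.0724) or with the sets as a term (adjusted p = 0.0703). Among 20 oxidative stress, haem and metal genes 7 rose and 3 fell (median 0.36). SOD2, the mitochondrial superoxide dismutase, was at 819.8, 1940.0, 2712 and 2119 CPM against 245 to 434 CPM (median 363) (2.43 ± 0.32, adjusted p = 5.16e-07). GPX1, a glutathione peroxidase, was at 351, 392, 435 and 518 CPM against 95.6 to 159 CPM (median 112) (1.86 ± 0.25, adjusted p = 6.52e-07). For both, all 4 libraries lay above every control. TFRC, the transferrin receptor that takes up iron, fell to 38.6, 53.9, 41.9 and 67.9 CPM from 75.3 to 967 CPM (median 346) (-3.19 ± 0.62, adjusted p = 1.02e-04).

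Hypoxia and angiogenic genes were divided, 8 of 19 higher and 6 lower (median 0.14), with the glycolytic HK2 and PFKFB3 and the collagen enzyme LOX among the higher genes and VEGFA and ANGPT1 among the lower. KDM3A, a histone demethylase induced by hypoxia, rose by a small amount (0.70 ± 0.13, adjusted p = 4.97e-05). Cell death and p53 genes numbered 11 higher and 1 lower of 22 (median 0.67). GADD45A, a damage-induced stress gene, was at 77.1, 203, 191 and 239.7 CPM against 25.4 to 61.2 CPM (median 36.9), replicate 1 just above the controls (2.17 ± 0.45, adjusted p = 1.88e-04). GSDMD, the pore protein of pyroptosis, was at 15.4, 16.5, 19.5 and 23.0 CPM against 4.18 to 12.3 CPM (median 6.18) (1.39 ± 0.30, adjusted p = 3.23e-04). BID, which links death receptors to mitochondria, was at 11.8, 15.0, 13.9 and 23.0 CPM against 6.35 to 11.5 CPM (median 7.47) (1.01 ± 0.19, adjusted p = 6.44e-05). BCL2A1, a survival gene of leukocytes, overlapped the controls in replicate 1 only, at 0.839, 4.89, 3.70 and 7.74 CPM against 0.195 to 1.27 CPM (median 0.393) (2.96 ± 0.57, adjusted p = 9.01e-05).

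In the cell cycle list 9 of 30 genes were higher, close to the background of 25.4% higher, and 1 was lower, beside a background of 26.2% lower. The largest rises were in DNA replication genes. MCM2, a subunit of the replicative helicase (chromosome 13, 72630378 to 72651270), was at 18.3, 14.6, 21.4 and 29.1 CPM against 1.19 to 7.54 CPM (median 2.20). All 4 were above the highest control, control 1 (3.00 ± 0.43, adjusted p = 2.14e-06). MCM4 was at 10.9, 16.0, 19.1 and 26.8 CPM against 1.54 to 4.71 CPM (median 3.48) (2.51 ± 0.37, adjusted p = 3.17e-06). MCM3 was at 8.95, 10.4, 13.1 and 18.9 CPM against 1.64 to 4.56 CPM (median 2.06) (2.38 ± 0.37, adjusted p = 6.70e-06). The helicase subunits MCM6 and MCM7 rose by less, at 1.49 ± 0.26 and 0.89 ± 0.17. UHRF1, which maintains DNA methylation behind the replication fork, was at 6.99, 6.06, 10.1 and 14.8 CPM against 0.365 to 3.46 CPM (median 1.18) (2.53 ± 0.55, adjusted p = 3.03e-04). The median of the 30 genes was -0.15 and became 0.19 with scaling by column totals and 0.02 without replicate 1, so it has no steady direction. The medians of the fast fibre (-0.07 to 0.26), immediate early (-0.12 to 0.10) and TGF-beta lists (-0.13 to 0.16) changed sign with that scaling too.

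The 4 libraries at 20 h were not alike in all genes. SLC7A2, a transporter of arginine and lysine, was at 66.0, 16.6, 13.0 and 4.26 CPM against 87.7 to 202 CPM (median 111) (-2.28 ± 0.54). ALPK2, an alpha kinase, was at 46.4, 18.9, 10.1 and 2.90 CPM against 57.3 to 162 CPM (median 70.2) (-2.12 ± 0.51). The muscle gene FSD2 was at 147, 33.1, 19.4 and 10.4 CPM against 91.8 to 264 CPM (median 158) (-1.61 ± 0.51). For these 3 genes replicate 1 was the highest and replicate 4 the lowest, and for FSD2 replicate 1 lay inside the control range. KY, a Z-disc protein of fibre growth, was at 291, 51.3, 28.2 and 12.9 CPM against 48.3 to 168 CPM (median 118), so replicate 1 was above and replicates 3 and 4 below all controls. KY was not called (-0.16 ± 0.52, adjusted p = 0.823), and without replicate 1 it was lower (-1.79, adjusted p = 0.00431). PFN1, which encodes the actin-binding profilin, split otherwise, with 27.4 and 26.4 CPM in replicates 2 and 3 and 0.373 and 0.774 in replicates 1 and 4, against 5.66 to 12.4 CPM (median 9.12). That split follows the library sets, as does NDUFAF8 (1.40, 13.7, 14.5 and 0.645 CPM), which defines one. PFN1 was not called over all libraries (0.56 ± 0.88, adjusted p = 0.614) and was higher within the set that holds both groups (1.42, adjusted p = 0.00180). The call for NDUFAF8 was lost without replicate 1 (adjusted p = 0.0624) and without replicate 4 (adjusted p = 0.0731).

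Compared with 12 h, 569 genes were called at 20 h (6.05%), 211 higher (2.24%) and 358 lower (3.80%). With scaling by column totals the split was 948 higher and 146 lower, so the balance of directions depends on the scaling. Single libraries weighed heavily: 218, 146 and 196 genes were called without 20 h replicates 2, 3 and 4, and 942, 99 and 121 without 12 h replicates 1, 3 and 4. The 12 h and 20 h libraries divided over the same 2 sets, 2 and 2 each. Within the set of 20 h replicates 2 and 3, where 2 libraries stood against 2, 13 genes were called, and without the other set, 1. A fit with a term for the sets called 710, of which 555 were among the 569. Respiratory chain subunits were lower at 20 h for 15 of 38, with a median log2 fold change of -0.95, and 5 of 22 tricarboxylic acid cycle genes were lower. In the cell cycle list 5 of 30 genes were higher at 20 h and none lower (median 0.40), the 5 being MCM2, MCM3, MCM4, MCM6 and UHRF1. MCM2 was at 18.3, 14.6, 21.4 and 29.1 CPM at 20 h and 6.44, 2.92, 4.92 and 1.26 CPM at 12 h, with no overlap (2.42 ± 0.56, adjusted p = 0.0126). The call was lost without 12 h replicate 4 (adjusted p = 0.0567), within the set of 20 h replicates 2 and 3 (adjusted p = 0.0977) and without the other set (adjusted p = 0.519). UHRF1 was higher by 2.36 ± 0.71 (adjusted p = 0.0423) and MCM3 by 1.85 ± 0.47 (adjusted p = 0.0208), calls that were lost in 10 and 7 of 19 alternatives. FAM180A, a gene of unsettled function, was higher by 2.67 ± 0.59 (adjusted p = 0.00969), a call lost within that set (adjusted p = 0.0827) and without the other (adjusted p = 0.166). PHGDH, the first enzyme of serine synthesis, was at 0.932, 0.544, 0.489 and 0.451 CPM at 20 h and 4.10, 2.83, 6.68 and 16.4 at 12 h (-3.63 ± 0.50, adjusted p = 1.17e-04). PSPH, a later enzyme of the same pathway, was lower too (-3.22 ± 0.47, adjusted p = 2.50e-04). Both calls were kept with each library left out in turn. They were lost within the set of 20 h replicates 2 and 3 (adjusted p = 0.0831 for both) and without the other set (adjusted p = 0.0720 and 0.1000).

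Compared with 16 h, 203 genes were called (2.16%), 95 higher (1.01%) and 108 lower (1.15%). All 4 libraries at 16 h lay in a set that held none of those at 20 h, so set and time cannot be told apart here, and with the sets as a term edgeR called 0 genes, 645 having an unadjusted p below 0.05. Leaving out single libraries left 131, 95, 103 and 91 genes (20 h replicates 1 to 4) and 65, 75, 102 and 111 genes (16 h replicates 1 to 4). C1QBP and ND6, which define sets, were among the largest falls. The largest rise was LYZ, at 5.50, 9.94, 9.29 and 20.8 CPM at 20 h and 1.08, 1.21, 0.462 and 0.619 CPM at 16 h (3.74 ± 0.70, adjusted p = 0.00334), while none of the other 24 macrophage markers was called. At 12 h LYZ had been at 19.2, 9.26, 3.91 and 3.89 CPM. PECR, a peroxisomal enoyl-CoA reductase, was at 40.2, 23.9, 21.0 and 22.1 CPM at 20 h and 3.56, 6.16, 6.41 and 8.66 at 16 h (2.11 ± 0.32, adjusted p = 5.30e-04), both below the control median of 85.1. RDH16, a retinol dehydrogenase, was lower at 20 h (-2.79 ± 0.58, adjusted p = 0.00897), and NALF2, a sodium leak channel factor, higher (2.33 ± 0.50, adjusted p = 0.0114). Both calls, as those of LYZ and PECR, were lost with a term for the sets, and the first pair also without the set low in NDUFAF8.

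From 20 h to 24 h, 302 genes were called (3.21%), 182 higher at 24 h (1.93%) and 120 lower (1.28%), and scaling by column totals gave 173 higher and 51 lower. The libraries at 24 h were spread over 3 sets, and a fit with a term for the sets called 54 genes. Leaving out single libraries left 153, 101 and 179 genes (20 h replicates 1, 2 and 3) and 111 and 98 (24 h replicates 2 and 4). SLC2A4, the insulin-responsive glucose transporter, was lower at 24 h (-2.49 ± 0.53, adjusted p = 0.00861), a call lost with a term for the sets (adjusted p = 0.0873) and without the set low in NDUFAF8 (adjusted p = 0.0980). PCK1, the gluconeogenic and glyceroneogenic enzyme, rose from 1.12, 0.311, 0.349 and 0.129 CPM to 21.1, 9.72, 5.36 and 11.2 CPM, where the levels at 20 h were near 3 counts, so that the fold depends on the small count added to each value (4.67 ± 0.80, adjusted p = 0.00121). Of 20 satellite cell and myogenic genes 2 were called higher at 24 h and none lower (median 0.04). MYOD1, the commitment factor, went from 15.1, 14.1, 19.9 and 17.5 to 64.0, 98.3, 35.6 and 62.0 CPM (1.97 ± 0.37, adjusted p = 0.00252). MYOG, the differentiation factor, went from 59.8, 57.6, 67.1 and 63.3 to 115, 174, 122 and 138 CPM (1.15 ± 0.31, adjusted p = 0.0362). Levels at 20 h and 24 h did not overlap for either. The call for MYOD1 was lost with a term for the sets (adjusted p = 0.145), and the call for MYOG was lost in 8 of 18 alternatives, which include leaving out any library at 20 h or replicate 2 or 4 at 24 h.

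HERPUD1, FABP4 and RIDA differed at 20 h from 12, 16 and 24 h, in comparisons that share the 4 libraries at 20 h. HERPUD1 and RIDA were chosen after their values were seen, and FABP4 was named by rule. Other genes not described here, ASPN and UQCC3 among them, were also lower at 20 h than at those times. HERPUD1, a membrane factor that helps the reticulum discard misfolded proteins, was at 194, 246, 220.2 and 186 CPM at 20 h. It read 169, 151, 119 and 103 CPM at 12 h, 135, 131, 126 and 112 at 16 h and 149, 145, 108 and 143 at 24 h. No library of those times reached the lowest at 20 h. The log2 differences were 0.64 ± 0.18 from 12 h to 20 h (adjusted p = 0.0307), 0.75 ± 0.18 from 16 h to 20 h (adjusted p = 0.0223) and -0.63 ± 0.18 from 20 h to 24 h (adjusted p = 0.0447), and these calls were lost in 7 of 19, 9 of 18 and 12 of 18 alternatives. FABP4, the fatty acid carrier of fat and capillary cells, was at 36.1, 16.5, 20.1 and 20.6 CPM at 20 h against 41.9 to 190.0 CPM (median 91.4) in controls. At 24 h it read 142, 151, 272 and 109 CPM, a log2 rise of 2.85 ± 0.39 (adjusted p = 1.76e-04) that was kept in all 18 alternatives. Its differences from 12 h (-1.21 ± 0.37, adjusted p = 0.0457) and 16 h (-1.43 ± 0.37, adjusted p = 0.0371) were lost in 10 of 19 and 8 of 18. RIDA, a deaminase that removes reactive imines, was at 3.92, 6.99, 7.34 and 7.35 CPM at 20 h. It read 8.59, 9.94, 16.8 and 21.0 CPM at 12 h, 17.6, 16.4, 16.4 and 16.6 at 16 h and 15.6, 13.1, 14.5 and 13.3 at 24 h. Replicate 1 held the lowest of the levels at 20 h, and the log2 differences were -1.13 ± 0.23 (adjusted p = 0.00653), -1.38 ± 0.23 (adjusted p = 0.00115) and 1.14 ± 0.23 (adjusted p = 0.00481) in the same order, calls lost in 4 of 19, 1 of 18 and 1 of 18 alternatives and in none that left out 1 library.

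**Figure D5:**
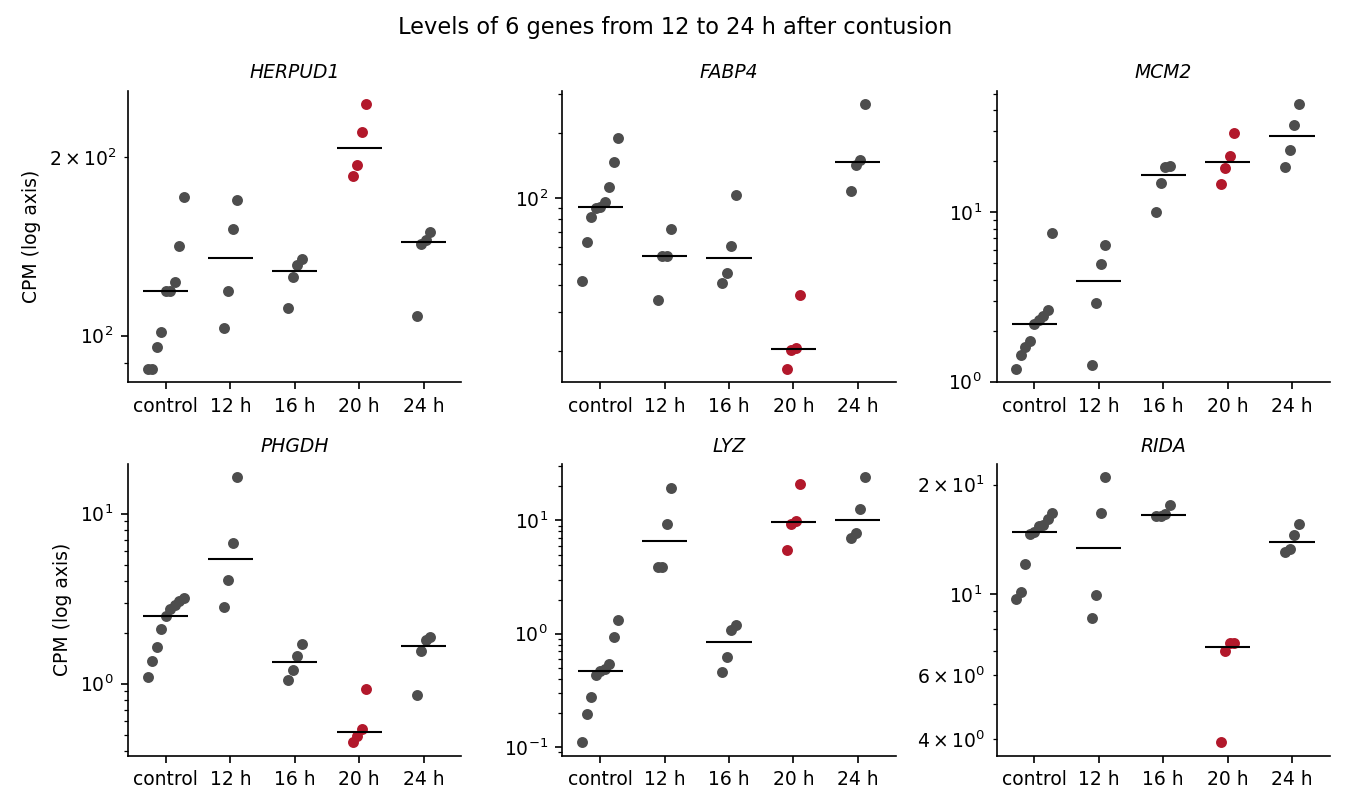
Levels in CPM on a log axis of 6 genes in the 9 controls and in the 4 libraries at each of 12, 16, 20 (red) and 24 h after contusion; black lines are medians. HERPUD1 is highest and FABP4, PHGDH and RIDA lowest at 20 h, and LYZ is low at 16 h.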

How the data were processed

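RNA was taken with Trizol, made into libraries with a NEBNext Ultra kit and read as 150 bp pairs, per the labels' protocols. The authors deposited raw counts per gene, 9418 rows in 37 columns. The submitters' processing notes name FastQC, MultiQC, Trimmomatic, HISAT2 2.2.1, HTSeq and Sscrofa11.1. The annotation release and strand setting are not given in the sources used here, so antisense and overlapping genes, and genes with near-identical copies, are uncertain.

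From these counts, edgeR 4.0.16 (limma 3.58.1, R 4.3.3) fitted its robust quasi-likelihood model with TMM scaling to all 37 libraries by group, after its filter on low counts (9411 genes). Differences of 20 h from control, 12 h and 16 h, and of 24 h from 20 h, were tested with Benjamini-Hochberg adjustment over all genes. All of these comparisons share the 4 libraries at 20 h. The fit was tested on simulated data, and no 2 libraries within the 20 h group or within the controls were alike within counting noise. Counts give only counting precision, a count of 3 being taken as the lowest level read. Coordinates came from RefSeq (Sscrofa11.1) by symbol for 8936 genes.

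The 42 gene lists, the library sets and the comparison itself were chosen with earlier results of these data known. Library sets were a column total above 20 M, then C1QBP above 8 CPM, then NDUFAF8 below 4 CPM, then ND6 at most or above 32 CPM. Genes were named by rule. Among called genes without overlap and a level of 5 CPM or more in the higher group, these were the 15 largest rises, 12 largest falls, 6 smallest p-values and 6 largest rises and falls in CPM. Added to them were up to 5 genes per list by p, 5 rises and 5 falls for each other comparison, and the 6 genes of at least 10 CPM with the widest spread at 20 h. Not all of them are described. ATF3, CSF3, GPNMB, HERPUD1, HSPA5, MYC, MYOD1, MYOG, RIDA and XIRP1 were chosen after their values were seen. Alternatives were other scalings, filters and tests (DESeq2 1.42.0, limma-voom), only the groups compared, a replicate block, the library sets, and each library left out. A few results are not reported here.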

Additional observations from a re-analysis of the deposited data

Results flagged for a closer look

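A library standing apart from the rest of its group was looked for by the gap to its nearest neighbour against the range of the group (Dixon's 95% limit) in 442 groups of values. Chance alone would give about 5% for independent, normally distributed values. The values here were untransformed CPM, and the sums hold some of the named genes. FSD2 and KY were named for their spread at 20 h, so the 5% is only a rough guide. It was met in 53 groups, 26 at 20 h and 27 of controls. Replicate 1 was the library apart in 20 of those at 20 h and replicate 4 in 6.

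20 h replicate 1 stood above the rest of its group for TPM2 (7409 CPM), ACTN3 (7853 CPM), UQCRFS1 (207 CPM), COL15A1 (188 CPM), RECK (5.59 CPM), TGFBR2 (190 CPM), FSTL1 (186 CPM), FST (5.59 CPM), FSD2 (147 CPM), KY (291 CPM), CKM (28868 CPM), PECR (40.2 CPM), the summed fibroblast and fibro-adipogenic markers (6891 CPM), the summed contractile and Z-disc genes (134701 CPM), the summed fast fibre genes (112955 CPM), the summed glycolysis genes (222003 CPM), the summed matrix and collagen genes (10612 CPM) and the summed TGF-beta and activin signalling genes (1613 CPM). 20 h replicate 1 stood below the rest of its group for SOX9 (5.22 CPM) and RIDA (3.92 CPM). 20 h replicate 4 stood above the rest of its group for S100A12 (26.2 CPM), S100A8 (8.58 CPM), TYROBP (53 CPM), AMCF-II (9.09 CPM), ITGB2 (76.4 CPM) and F13A1 (101 CPM). Control 1 stood above the rest of its group for AQP9 (0.55 CPM), TYROBP (6.21 CPM), CD163 (29.5 CPM), MCM2 (7.54 CPM) and the summed antigen presentation class II genes (199 CPM). Control 2 stood above the rest of its group for LOXL4 (9.31 CPM), RUNX1 (17.1 CPM), SERPINB10 (1.37 CPM), CCR1 (6.21 CPM), RTKN2 (3.47 CPM), CSF3R (5.75 CPM), PDPN (46.6 CPM), AMCF-II (0.639 CPM), FOSL1 (2.37 CPM), SOCS3 (38.3 CPM), MANF (52.5 CPM), BID (11.5 CPM) and XIRP1 (2022 CPM). Control 2 stood below the rest of its group for the summed mast cell markers (3.19 CPM). Control 3 stood above the rest of its group for CNN1 (107 CPM) and TNC (37.4 CPM). Control 5 stood below the rest of its group for PLAUR (1.6 CPM). Control 7 stood above the rest of its group for TREM2 (0.549 CPM), MARCO (0.769 CPM), CHRND (6.37 CPM) and SLC7A2 (202 CPM). Control 9 stood above the rest of its group for ATF3 (675 CPM).

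Levels of genes named in the report differed at 20 h from those at 12, 16 or 24 h by the edgeR test of the difference in 58 cases, given here as log2 differences. Against 12 h, levels at 20 h were higher for ARHGAP6 (1.27), MCM2 (2.42), MCM3 (1.85), MCM4 (1.74), MCM6 (1.03), PDIA4 (0.77), SOD2 (1.32), KDM3A (0.53), TSC22D3 (0.94), UHRF1 (2.36), FAM180A (2.67) and HERPUD1 (0.64). Against 12 h, levels at 20 h were lower for COX2 (-1.15), CNN1 (-2.45), LUM (-1.30), DCN (-1.53), MFAP5 (-2.13), FABP4 (-1.21), PVALB (-2.95), NDUFA5 (-1.15), UQCRFS1 (-1.14), MDH1 (-1.35), DLD (-1.03), DNAJB4 (-1.42), HLF (-1.11), PHGDH (-3.63), PSPH (-3.22), RDH16 (-2.01) and RIDA (-1.13). Against 16 h, levels at 20 h were higher for LYZ (3.74), HERPUD1 (0.75), PECR (2.11) and NALF2 (2.33). Against 16 h, levels at 20 h were lower for ND6 (-3.79), FABP4 (-1.43), ADIPOQ (-2.79), ELN (-1.82), C1QBP (-5.59), RDH16 (-2.79), PCK1 (-3.51) and RIDA (-1.38). Against 20 h, levels at 24 h were higher for ND6 (4.49), ACTA2 (1.02), LUM (1.53), FABP4 (2.85), ADIPOQ (2.27), TSC22D3 (1.27), PCK1 (4.67), MYOG (1.15), MYOD1 (1.97) and RIDA (1.14). Against 20 h, levels at 24 h were lower for PFKFB3 (-2.26), KLF9 (-0.86), ALPK2 (-2.02), KY (-2.32), HERPUD1 (-0.63), NALF2 (-1.83) and SLC2A4 (-2.49).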

How the results depend on the processing

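The count of genes called at 20 h against control stayed between 3928 and 5076 under all 24 alternatives, and between 3928 and 4958 with 1 library left out. Of the 169 named genes called in that comparison 153 kept their call under every alternative, 35 of 4052 values lost it and none reversed. Many of these genes were named for small p-values or large changes in the same fit, so their calls do not measure how stable calls are in general. Of all 4851 calls, 3845 were kept with scaling by column totals, 4092 with the sets as a term, 3608 within the set low in ND6 and 4851 with DESeq2. The other comparisons depended on the processing, and the cause was not tested. For 20 h against 12 h (569 called) the count was 1094 with scaling by column totals, 946 with DESeq2, 90 with only the 2 groups, 13 within the set low in ND6, 1 without the set low in NDUFAF8, and 99 to 942 with 1 library left out. For 20 h against 16 h (203 called) it was 118 with column totals, 412 with DESeq2, 444 with only the 2 groups, 0 with the sets as a term (edgeR, 645 genes at an unadjusted p below 0.05), 20 without the set low in NDUFAF8, and 65 to 131 with 1 library left out. For 24 h against 20 h (302 called) it was 558 with DESeq2, 54 with the sets as a term, 109 without the set low in NDUFAF8, and 98 to 310 with 1 library left out. Of 1008 list counts 39 moved by over 1.5 times. Scaling by column totals changed the split of higher and lower calls to 948 and 146 against 12 h and to 173 and 51 from 20 h to 24 h.

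Libraries of 20 h and control share replicate numbers, but same-numbered libraries did not deviate together (correlations 0.05, 0.08, -0.22 and 0.18). The labels do not say whether such libraries share an animal, and so few pairs cannot decide it. With the replicate block 4240 genes were called against control (3892 of them also without it), 698 against 12 h, 227 against 16 h and 306 from 20 h to 24 h. Among named genes the calls against control lost with it were those of CHRNG (adjusted p = 0.0605), MYC (0.0624), RPL22 (0.0763), FSD2 (0.0857) and XIRP1 (0.135). A fold for a gene near 3 counts in a group depends on the prior count.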

Other observations

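Genes that report on the daily clock and on steroid hormones were counted too. Of 17 clock genes 1 rose and 2 fell against control, and 6 were called without 20 h replicate 1. HLF, a clock output factor, was at 25.9, 11.7, 9.02 and 8.32 CPM against 22.6 to 44.8 CPM (median 36.6) (-1.37 ± 0.31, adjusted p = 4.29e-04). BHLHE40, a repressor of clock genes that hypoxia also induces, was called higher (0.86 ± 0.31, adjusted p = 0.0204), but not without 20 h replicate 2 (adjusted p = 0.0563) or replicate 3 (adjusted p = 0.0648). Of 19 glucocorticoid-induced genes 4 rose and 2 fell, while 8 rose and none fell with a term for the library sets, 7 rose and 1 fell within the set that holds both groups, and 9 rose and 1 fell with scaling by column totals. TSC22D3, a steroid-induced leucine zipper protein, was at 247, 446, 534 and 419 CPM against 142 to 251 CPM (median 211), replicate 1 inside the control range (1.01 ± 0.16, adjusted p = 9.14e-06). KLF9, a steroid-induced repressor, was at 347, 446, 418 and 356 CPM against 170.2 to 241 CPM (median 199) (0.95 ± 0.18, adjusted p = 6.34e-05).

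Of 33 cytosolic ribosomal protein genes 2 rose, and none fell. RPL3 was at 78.2, 79.8, 94.3 and 137 CPM against 27.9 to 52.5 CPM (median 39.5), and RPL22 at 103, 90.8, 91.0 and 88.5 CPM against 38.6 to 86.3 CPM (median 49.6). With scaling by column totals 12 of the 33 were called. Genes of this family have near-identical copies, so reads may have been split between them. Markers of nerve, tendon and skin cells moved in single genes. Of 9 Schwann and nerve markers 3 rose and 3 fell (3 were called without replicate 3 and 3 without replicate 4), among them the myelin protein PMP22, which fibroblasts also express (0.96 ± 0.18), and the adhesion protein L1CAM (-0.93 ± 0.22). Of 4 tendon and cartilage markers 1 rose and 1 fell. SOX9, the cartilage factor that injured stromal cells can also express, was at 5.22, 17.1, 18.9 and 17.2 CPM against 0.615 to 2.92 CPM (median 1.30) (3.25 ± 0.55, adjusted p = 1.57e-05), with replicate 1 well below the other 3 libraries. Of 5 keratinocyte markers 1 rose and 2 fell (1 was called without replicate 3 and 1 without replicate 4), and none of the tested markers of these lists was at 0 in all 4 libraries.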
